A study of Homo sapiens with 2 samples.

Results

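The zinc finger genes of chromosome 19 were taken as the genes of the deposited table whose name is ZNF, a number and at most 1 letter, and whose locus lies on chromosome 19. This rule, which uses no measured value, found 246 of the 18781 genes of the table. They carry 241 names, because 5 names stand on 2 rows with different Ensembl identifiers. RefSeq lists 263 chromosome 19 symbols of this form, and 237 of them are named in the table, which holds no gene that is listed at 0 in both libraries. To find RNAs associated with IMP1, an RNA-binding protein encoded by IGF2BP1, lysates of wild-type T47D cells, an established luminal breast cancer line, were incubated with beads that carried either an anti-IMP1 antibody or normal IgG as the control. The RNA left on the beads was sequenced (RIP-seq), and the data hold 2 libraries, called the IMP1 RIP and the IgG RIP, 1 for each antibody, so that no difference below has a replicate check and none was tested.

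Most zinc finger genes of chromosome 19 encode DNA-binding repressors of the KRAB family, whose arrays of zinc fingers read DNA and whose KRAB domain recruits the corepressor TRIM28. TRIM28 in turn brings in the histone methyltransferase SETDB1 and heterochromatin proteins, and much of this machinery silences retrotransposons. The genes arose by repeated tandem duplication, so that they lie in clusters of related neighbours and their mRNAs are typically present at low levels.

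Values are FPKM, fragments scaled by transcript length and by library size. The depth behind them is unknown, and a gene listed at 0 can be a missed transcript as well as an absent one. The FPKM of all genes summed to 353885 in the IMP1 RIP and to 1298363 in the IgG RIP, and the zinc finger genes of chromosome 19 made up 0.0677% and 0.0343% of these sums. The highest value of any gene was 97004 FPKM in the IMP1 RIP and 395449 FPKM in the IgG RIP, so single genes weigh heavily on these sums. Of 15 luminal markers, 14 were above 0 in both libraries (TFF1 was listed at 0 with IgG), and their FPKM summed to 1335 in the IMP1 RIP and 643 in the IgG RIP. All 12 mesenchymal markers, which mark fibroblast-like cells, were at least 2-fold lower in the IMP1 RIP, with summed FPKM of 2.81 against 235. Among them DCN, LUM, COL1A2, SPARC, PDGFRB and ZEB2 were listed at 0 in the IMP1 RIP, and no mesenchymal marker was at 0 with IgG. Of 8 blood markers, 3 were in the table. CD74 had 305 FPKM with IgG against 6.42 FPKM in the IMP1 RIP, while CD14 (0.103 FPKM) was above 0 in the IMP1 RIP alone. The part of this marker difference in the values of the zinc finger genes was not tested.

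The zinc finger genes of chromosome 19 were low in the IMP1 RIP, where nearly all those in the table were above 0. In the IgG RIP nearly as many were listed at 0 as were above 0. The table holds no gene at 0 in both libraries, so every gene listed at 0 with IgG is above 0 in the IMP1 RIP. The shares above 0 are therefore partly set by that filter. In the IMP1 RIP 242 of the 246 genes (98.4%) were above 0, against 93.6% of all genes. The share was also 98.4% for zinc finger genes of the same name form on other chromosomes. The median of the 246 genes was 0.713 FPKM, and 191 of them (77.6%) lay from 0.3 to under 3 FPKM, where 40.1% of all genes lay. None of the 246 reached 10 FPKM, where 11.7% of all genes did. For zinc finger genes on other chromosomes the median was 0.934 FPKM, 68.1% lay in that range and 4 (1.59%) reached 10 FPKM. In the IgG RIP 129 of the 246 genes (52.4%) were above 0, against 61.3% of all genes. The median of these 129 was 2.14 FPKM. Thus 117 genes (47.6%) were above 0 in the IMP1 RIP and listed at 0 with IgG, against 38.7% of all genes, and 4 (1.63%) were above 0 with IgG alone, against 6.4%. The other genes of chromosome 19 were close to the zinc finger genes, with 53.4% above 0 with IgG and 46.6% above 0 in the IMP1 RIP alone. For zinc finger genes on other chromosomes these shares were 59% and 41%. Both libraries detected 125 of the 246 zinc finger genes of chromosome 19 (50.8%), against 54.9% of all genes. For zinc finger genes on other chromosomes this share was 57.4%.

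**Figure D1:**
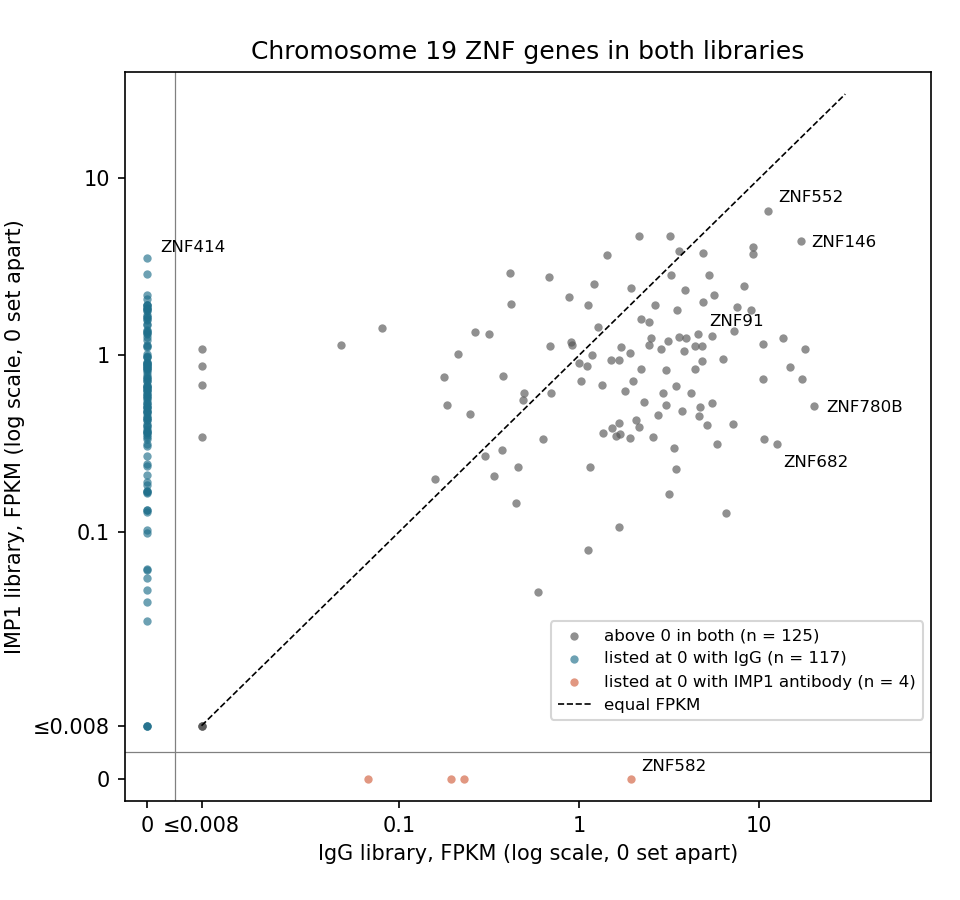
Each point is 1 of the 246 zinc finger genes of chromosome 19, with its FPKM in the IgG RIP (x) and in the IMP1 RIP (y) on log axes, values of 0 set apart beyond the grey lines and the smallest values above 0 drawn at the lower end of each log axis. Of the points, 117 stand in the column at 0 with IgG, 4 stand in the row at 0 in the IMP1 RIP, and most of the 125 others lie below the dashed line of equal FPKM.

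Which library was higher depended on whether genes listed at 0 were counted. On the scale log2 of (FPKM + 0.1) in the IMP1 RIP over the same in the IgG RIP, 125 genes (50.8%) were higher in the IMP1 RIP by at least 2-fold, against 39.9% of all genes, and 107 of these were listed at 0 with IgG. At least 2-fold lower were 69 genes (28%), against 29.9% of all genes. Of the other genes of chromosome 19, 50.4% were at least 2-fold higher and 19.5% lower. Of zinc finger genes on other chromosomes, 43% were higher and 35.9% lower. Among the 125 genes above 0 in both libraries the median log2 ratio was -1.25, against -0.72 for all such genes, with 18 (14.4%) at least 2-fold higher and 66 (52.8%) at least 2-fold lower. Of all genes above 0 in both, 17.5% were higher and 43.8% lower. The zinc finger genes of the same name form on other chromosomes were close to these values, with a median of -1.42 over 144 genes, 12.5% higher and 59.7% lower. The other genes of chromosome 19 were not, with a median of 0.00 over 527 genes, 28.3% higher and 29.8% lower. The direction among genes above 0 in both also depended on the scale, since setting both libraries to the same FPKM sum moved the median of the zinc finger genes to 0.47 and that of all genes above 0 in both to 1.003. On that scale 161 of the 246 were at least 2-fold higher and 26 lower, against 63.7% and 13% of all genes. Single genes with very high values weigh heavily on that scale.

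The highest zinc finger genes of chromosome 19 in the IMP1 RIP were above 0 in both libraries. ZNF552 (ENSG00000178935) had 6.57 FPKM in the IMP1 RIP and 11.1 FPKM in the IgG RIP. ZNF580 had 4.73 and 2.14 FPKM, and ZNF460 had 4.70 and 3.19 FPKM. ZNF146, which consists almost wholly of zinc fingers and has no KRAB domain, had 4.43 FPKM in the IMP1 RIP and 17.0 FPKM in the IgG RIP, and it alone was among the 5 highest in both. ZNF562 had 4.07 and 9.25 FPKM. ZNF580 and ZNF460 were thus higher in the IMP1 RIP, ZNF580 by more than 2-fold, and the 3 others were higher with IgG.

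Besides ZNF146, the 5 highest genes of the IgG RIP stood from 0.517 to 1.09 FPKM in the IMP1 RIP. ZNF780B (ENSG00000128000) had 20.0 FPKM with IgG but 0.517 FPKM in the IMP1 RIP, a log2 ratio of -5.03, the smallest among the zinc finger genes of chromosome 19 above 0 in both. ZNF542 had 17.9 and 1.09 FPKM, ZNF528 had 17.3 and 0.736 FPKM, and ZNF222 had 14.8 and 0.855 FPKM. Apart from ZNF146, each was over 15-fold lower in the IMP1 RIP on the same scale. Further small ratios came from ZNF682 with 12.6 FPKM in the IgG RIP against 0.313 FPKM in the IMP1 RIP (log2 ratio -4.94), ZNF793 with 6.52 and 0.128 FPKM (-4.86) and ZNF738 with 10.6 and 0.336 FPKM (-4.62). Across the 125 genes above 0 in both libraries, the values of the IMP1 and IgG libraries had a Spearman's rho of 0.26, against 0.64 over all 10309 such genes, which span a far wider range. It was 0.46 for zinc finger genes on other chromosomes and 0.67 for the other genes of chromosome 19. The part of the range in these values was not tested. Each correlation is across genes of the same pair of libraries, and genes are not replicates.

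The largest ratios among genes above 0 in both libraries rested on values near 0 with IgG. ZNF548 had 1.08 FPKM in the IMP1 RIP and 0.000123 FPKM with IgG (log2 ratio 3.56), and ZNF20 had 0.869 FPKM and 1.41e-10 FPKM (3.28). ZNF776 had 1.42 and 0.0801 FPKM (3.08), ZNF585B had 1.14 and 0.0473 FPKM (3.07), and ZNF557 had 0.680 and 7.23e-08 FPKM (2.96). All 5 IgG values are below the pseudocount of 0.1, which therefore sets these ratios. In all, 7 zinc finger genes of chromosome 19 had an IgG value above 0 but under 0.001 FPKM, and 6 had such a value in the IMP1 RIP.

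Genes listed at 0 with IgG covered the full range of the IMP1 RIP except its top. Their median there was 0.627 FPKM, against 0.839 FPKM for the 129 genes above 0 with IgG. The highest was ZNF414 (ENSG00000133250) at 3.53 FPKM, followed by ZNF28 at 2.86, ZNF737 at 2.19, ZNF444 at 2.06 and ZNF587 at 1.93 FPKM. No fold is given for them, because their IgG value is 0. All 6 genes that RefSeq classes as transcribed pseudogenes were listed at 0 with IgG, as were 47.6% of the 246 genes and 38.7% of all genes. Another 5 of the 246 matched no RefSeq symbol, so their class is unknown and they are not in this count. The count thus depends on which symbols matched. ZNF724P, whose name ends in P like most of the 6 but which is not among them, had 2.75 FPKM with IgG. In the IMP1 RIP ZNF702P at 1.84 FPKM and ZNF833P at 0.000993 FPKM were the ends of the range of these 6. The reverse pattern had 4 genes. ZNF582 had 1.93 FPKM with IgG, ZNF382 had 0.230, ZNF99 had 0.194 and ZNF471 had 0.0670 FPKM, and all were listed at 0 in the IMP1 RIP. ZNF382, ZNF471 and ZNF582 are known as genes whose promoters are often methylated in carcinomas. Methylation was not measured here, and its part in these values was not tested.

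Members with a well-described role lay on both sides. ZNF91, a repressor of SVA retrotransposons, had 1.32 FPKM in the IMP1 RIP and 4.59 FPKM with IgG. ZNF93, which represses LINE elements, had 0.839 and 2.20 FPKM. ZNF274, which binds the coding ends of zinc finger genes themselves and recruits SETDB1 there, had 2.34 and 3.86 FPKM. Only ZNF350, a partner of BRCA1, was higher in the IMP1 RIP among those above 0 in both, with 1.13 against 0.689 FPKM. ZNF224, a repressor of the aldolase A gene, had 0.191 FPKM and the imprinted gene ZNF331 had 0.171 FPKM in the IMP1 RIP, and both were listed at 0 with IgG. Among these 7 genes, ZNF146 included, ZNF91, ZNF93 and ZNF146 were at least 2-fold lower in the IMP1 RIP, by 3.32-fold, 2.45-fold and 3.79-fold, and ZNF224 and ZNF331 are counted as higher through their 0 with IgG.

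Low genes of any kind are listed at 0 more often, so detection with IgG was also read at like levels in the IMP1 RIP. From 0.3 to under 1 FPKM, where 116 of the zinc finger genes lay, 54.3% of them were at 0 with IgG, against 57.4% of all genes in that range. From 1 to under 3 FPKM it was 38.7% of 75, against 32.9% of all genes, 29% of zinc finger genes on other chromosomes and 50.8% of the other chromosome 19 genes. From 3 to under 10 FPKM it was 1 gene of 10, ZNF414, against 17% of all genes. Above 0 but under 0.1 FPKM it was 66.7% of 15, against 75.7% of all genes. From 0.1 to under 0.3 FPKM it was 53.8% of 26, against 74.4% of all genes, 67.7% of zinc finger genes on other chromosomes and 85.7% of the other chromosome 19 genes. At like levels the zinc finger genes of chromosome 19 therefore lay near all genes from 0.3 to 3 FPKM and below them from 0.1 to 0.3 FPKM. In the lowest and highest ranges they filled, 15 and 10 genes are too few to tell them from all genes. They lay below the other genes of their chromosome in every range they filled, at both ends with these few genes. In the other direction, of the 110 zinc finger genes with at least 0.3 FPKM with IgG, 1 (0.909%), ZNF582, was at 0 in the IMP1 RIP, against 8.38% of all 10173 such genes. Zinc finger genes on other chromosomes were alike in this. From 0.3 to under 1 FPKM with IgG 1 of 12 was at 0 in the IMP1 RIP, and in the higher ranges none of 38, 51 and 27 were.

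**Figure D2:**
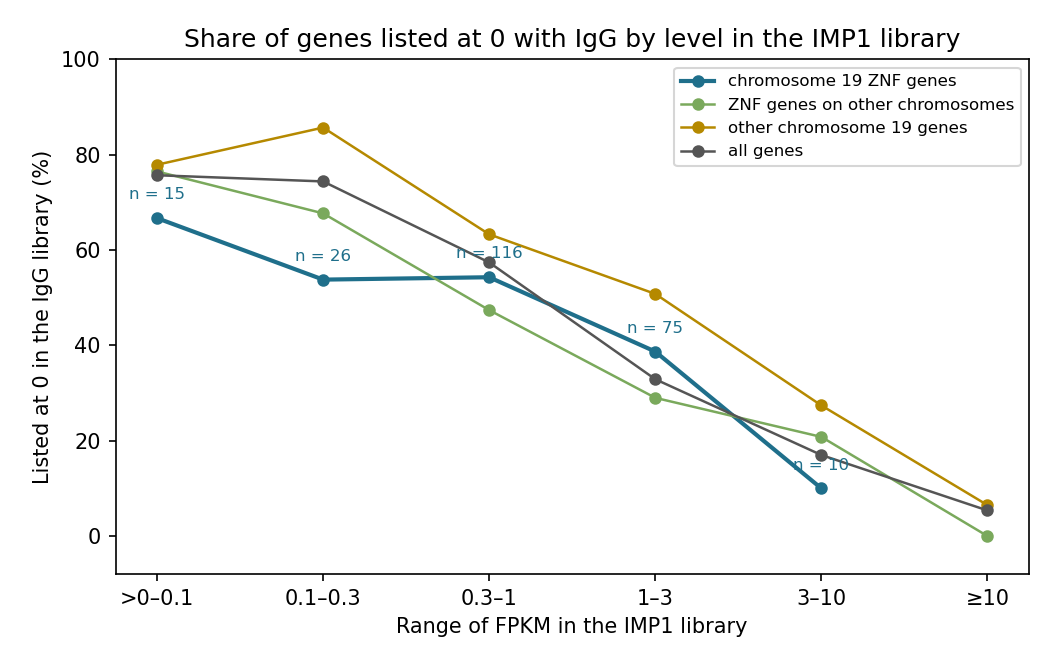
For each range of FPKM in the IMP1 RIP (x), points give the percent of genes listed at 0 in the IgG RIP (y) for 4 gene sets, with n for the zinc finger genes of chromosome 19 above or beside its points. From the lowest to the highest of the 5 ranges they fill, the share goes from 66.7% to 10% for these genes and from 75.7% to 17% for all genes, with nearly level values of 53.8% and 54.3% between for these genes.

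Along the chromosome, a gap of more than 1 Mb between members was taken as the end of a cluster. Positions are on hg19, and genes that overlap were given a common locus by the authors. This gave 16 clusters, of which 5 hold a single gene and 7 hold 14 or more genes, 226 genes in all. The sentences below give for each its place, its detection and the values of the genes at its ends, first in the IMP1 RIP and then in the IgG RIP. Of all genes 93.6% were above 0 in the IMP1 RIP and 61.3% with IgG, and these shares stand beside each count of detection below.

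On the short arm, the first cluster (chr19:2819872-2944969) runs from ZNF554 (0.580 FPKM and 0) to ZNF77 (0.443 FPKM and 0). All 5 of its genes were above 0 in the IMP1 RIP and 2 with IgG. The second (chr19:7069455-9903856) runs from ZNF557 to ZNF846 (1.37 and 7.19 FPKM). Among clusters of 14 or more it was the highest in the IMP1 RIP, with a median of 1.80 FPKM over 14 genes against 0.503 to 0.787 FPKM in the others, and it held 5 of the 10 members at 3 FPKM or more. With IgG 10 of its 14 genes (71.4%) were above 0. The third (chr19:11562141-12750912) runs from ZNF653 (0.559 FPKM and 0) to ZNF564 (0.669 FPKM and 0), and 11 of its 30 genes (36.7%) were above 0 with IgG, the lowest share among clusters of 14 or more. ZNF333 (chr19:14729929-14889353) stood alone with 0.170 FPKM and 0.

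The last cluster before the centromere (chr19:19779605-24312654), from ZNF101 (0.614 and 0.698 FPKM) to ZNF254 (0.344 and 1.48e-28 FPKM), holds the primate family around ZNF91. With IgG 22 of its 34 genes (64.7%) were above 0, near the 61.3% of all genes. Only 3 of the 34 had 10 FPKM or more with IgG, where 19.8% of all genes did. The summed FPKM of the cluster was 82.0 with IgG against 26.6 in the IMP1 RIP. Of the 21 genes above 0 in both, 12 were at least 2-fold lower in the IMP1 RIP and 1 was higher, where 43.8% and 17.5% of all genes above 0 in both were, shares that also stand beside the counts of this kind given for later clusters. The genes from ZNF724P to ZNF254, chosen after their values were seen, were the longest run of neighbours above 0 with IgG, with 6 genes.

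On the long arm, ZNF536 (chr19:30710573-31204445), a gene of the nervous system, had 0.0399 FPKM and 0, and ZNF507 (chr19:32836500-32878573) had 0.865 and 1.10 FPKM. The cluster from ZNF302 (0.393 and 2.15 FPKM) to ZNF792 (0.544 and 2.29 FPKM) at chr19:35168544-35454953 had 4 of its 5 genes above 0 with IgG. The cluster from ZNF146 to ZNF573 (0.241 FPKM and 0) at chr19:36673188-38307940 had 13 of 26 (50%), and among its 12 genes above 0 in both 8 were at least 2-fold lower in the IMP1 RIP and 2 were higher. ZNF546 (0.366 FPKM and 0) and ZNF780A (1.36 FPKM and 0) flank ZNF780B at chr19:40490041-40600313. ZNF574 (1.64 FPKM and 0) and ZNF526 (0.625 and 1.79 FPKM) make up the pair at chr19:42502473-42732353.

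The cluster from ZNF575 (0.765 and 0.378 FPKM) to ZNF296 (1.39 FPKM and 0) at chr19:44010871-45808541 had 11 of 25 genes (44%) above 0 with IgG. It also held the longest run of neighbours at 0 with IgG, 8 genes from ZNF576 to ZNF230 with 0.0991 to 1.79 FPKM in the IMP1 RIP, which was chosen after its values were seen. ZNF541 (chr19:48023942-48059113), a testis gene, had 0.0454 and 0.592 FPKM, and ZNF473 (chr19:50479724-50570050), a part of the machinery that processes histone mRNA ends, had 1.83 FPKM and 0. The cluster from ZNF175 (1.18 and 0.898 FPKM) to ZNF331 at chr19:52074551-54083523 had 22 of 38 (57.9%). The largest and last cluster (chr19:55987350-59023780), from ZNF628 (0.375 FPKM and 0) to ZNF446 (0.972 FPKM and 0), had 30 of 59 (50.8%). Its 28 genes above 0 in both had the median ratio nearest to 0 among clusters of 14 or more, at -0.41, with 7 at least 2-fold higher in the IMP1 RIP and 11 lower.

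**Figure D3:**
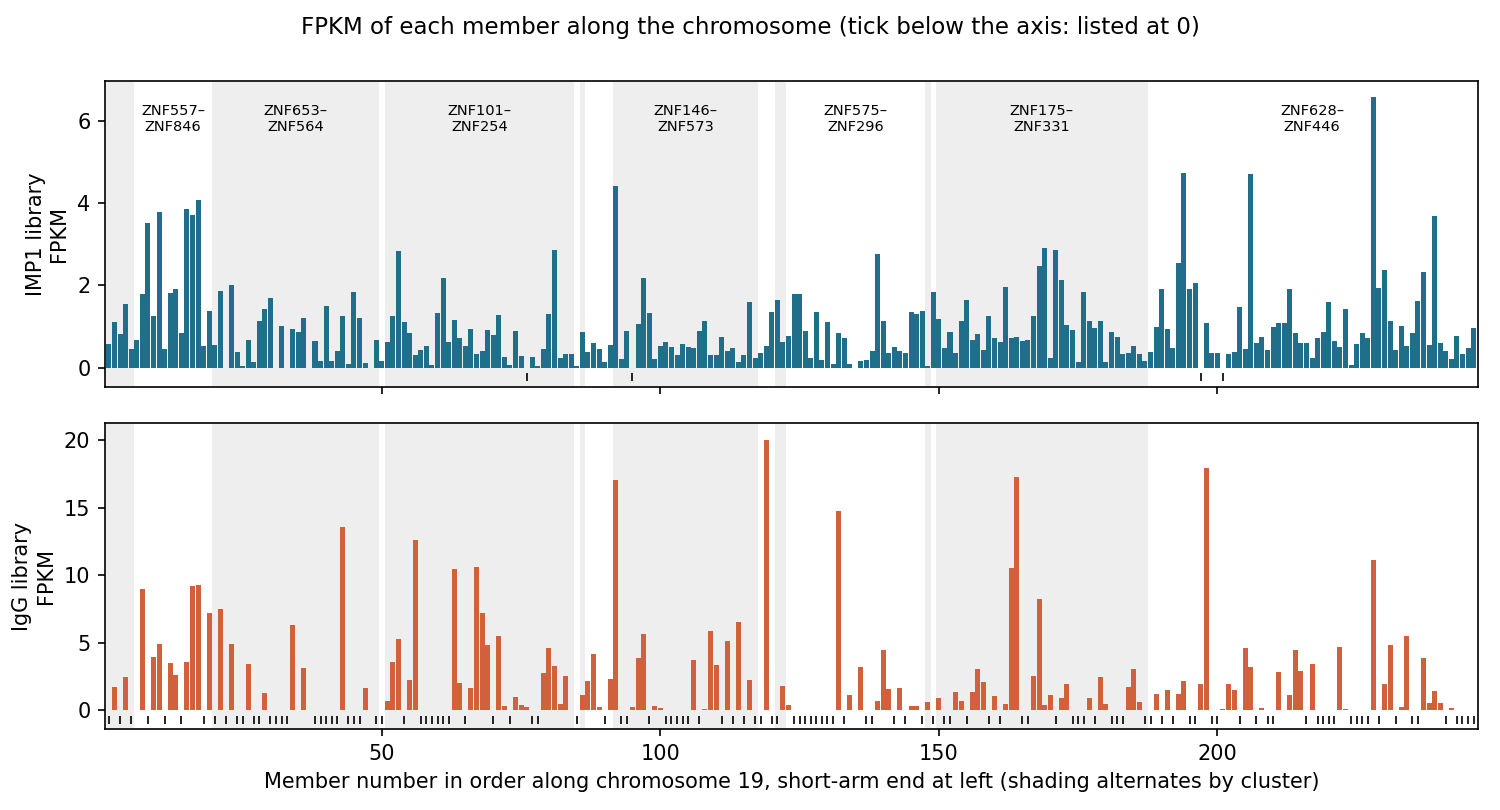
Bars give the FPKM of the 246 zinc finger genes in the IMP1 RIP (top) and the IgG RIP (bottom), in their order along chromosome 19, with shading that alternates by cluster and a tick below the axis for a value of 0. The top panel has 4 ticks and its highest bar is ZNF552 at 6.57 FPKM, while the bottom panel has 117 ticks between bars of up to 20.0 FPKM (ZNF780B).

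**Figure D4:**
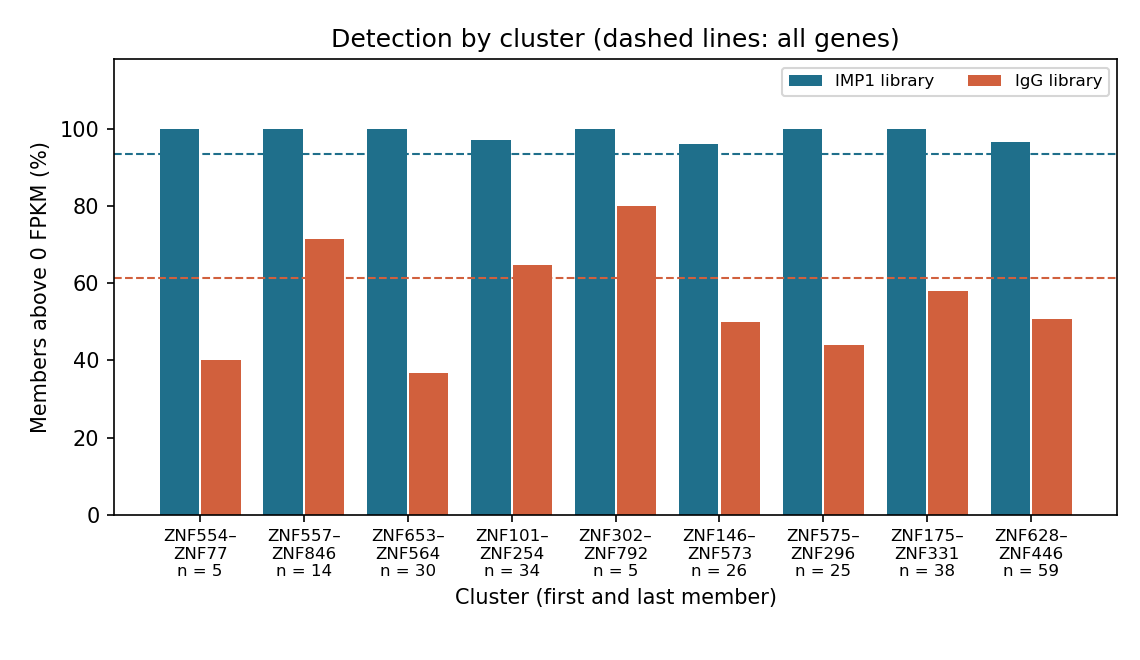
Bars give the percent of genes above 0 FPKM in the IMP1 RIP and in the IgG RIP for the 9 clusters of at least 5 genes, named by their first and last gene. Dashed lines mark all genes, 93.6% in the IMP1 RIP and 61.3% in the IgG RIP, and the IgG bars run from 36.7% to 80%.

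Neighbouring zinc finger genes were alike in detection with IgG about as often as other neighbours on the chromosome. Of 245 pairs of neighbouring zinc finger genes, 119 (48.6%) were alike in being above 0 or at 0 with IgG, against 52.0% of 1119 pairs of the other chromosome 19 genes. The authors' table gives 105 of the zinc finger genes a locus that it also gives to another of them, in 37 loci, and in 22 of these loci some genes were above 0 with IgG and others at 0. ZNF780A and ZNF780B share a locus and had 0 and 20.0 FPKM with IgG. ZNF552 and ZNF587 share a locus, with 11.1 FPKM and 0. Reads that fit several near-identical neighbours could have been split among them, so values within such a locus are uncertain. Of the 107 genes with a locus of their own, 53.3% were above 0 with IgG, against 51.8% of those in a shared locus. The 55 of them above 0 in both had a median log2 ratio of -1.16. Genes with a locus of their own can also have similar genes elsewhere, so the effect of shared reads was not tested.

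The clusters also differ in the sequence before their genes' starts, which was not part of the rule. RefSeq (GRCh38.p14) gives such a sequence for 204 of the 241 names, and the 250 bases before the first listed start of each were searched on both strands. The word of 8 letters was taken whose share among them most exceeded its share among the promoters of all other genes. That word, TCCAATCA, which holds the CCAAT box, stood before 48 (23.5%) of the zinc finger genes of chromosome 19. It stood before 8.72% of those on other chromosomes and in 1.51% of all 27305 promoters. It was in all 25 matched genes of the cluster from ZNF101 to ZNF254, in 19 of 24 from ZNF653 to ZNF564, in 4 of 5 from ZNF554 to ZNF77, and in no other cluster. In 47 of the 48 it read in this direction on the gene's strand, at a median of 58 bases before the start. The same search, with the zinc finger genes of chromosome 19 that hold TCCAATCA left out, gave ACTACATT. It was found before 33 (16.2%) of the 204, 3.59% of zinc finger genes on other chromosomes and 0.956% of all promoters. Among the 204 it was in long-arm clusters alone, with 17 of 52 from ZNF628 to ZNF446. Both words were picked by their counts, so these shares are a description and have no test.

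Shown here are the 250 bases before ZNF91 (chr19:23395472-23395721, minus strand), ZNF93 (chr19:19900696-19900945, plus strand) and ZNF682 (chr19:20039506-20039755, minus strand) from the cluster before the centromere, then ZNF146 (chr19:36214856-36215105, plus strand) and the neighbours ZNF780A (chr19:40090944-40091193, minus strand) and ZNF780B (chr19:40056232-40056481, minus strand) from the long arm. Positions are GRCh38.p14, letters run 5′ to 3′ on the gene's strand, and capitals mark TCCAATCA or the reverse complement of ACTACATT, which is AATGTAGT.
ZNF91: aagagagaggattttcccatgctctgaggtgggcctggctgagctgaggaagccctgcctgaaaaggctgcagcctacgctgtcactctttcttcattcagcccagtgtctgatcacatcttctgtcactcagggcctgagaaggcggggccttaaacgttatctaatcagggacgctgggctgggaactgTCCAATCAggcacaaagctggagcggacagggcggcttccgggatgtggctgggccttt
ZNF93: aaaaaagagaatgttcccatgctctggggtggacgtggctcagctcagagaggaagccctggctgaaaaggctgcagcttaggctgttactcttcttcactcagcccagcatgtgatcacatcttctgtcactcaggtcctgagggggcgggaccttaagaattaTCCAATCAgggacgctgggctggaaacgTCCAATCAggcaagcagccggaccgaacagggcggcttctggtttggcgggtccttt
ZNF682: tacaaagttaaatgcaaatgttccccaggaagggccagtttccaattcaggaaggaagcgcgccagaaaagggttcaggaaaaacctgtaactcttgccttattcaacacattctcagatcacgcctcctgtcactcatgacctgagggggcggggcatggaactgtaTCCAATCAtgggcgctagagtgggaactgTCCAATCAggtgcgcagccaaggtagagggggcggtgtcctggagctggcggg
ZNF146: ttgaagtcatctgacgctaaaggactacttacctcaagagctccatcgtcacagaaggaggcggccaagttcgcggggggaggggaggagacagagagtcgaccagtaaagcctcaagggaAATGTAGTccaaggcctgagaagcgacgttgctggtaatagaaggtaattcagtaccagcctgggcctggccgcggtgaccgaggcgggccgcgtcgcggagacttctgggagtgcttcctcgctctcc
ZNF780A: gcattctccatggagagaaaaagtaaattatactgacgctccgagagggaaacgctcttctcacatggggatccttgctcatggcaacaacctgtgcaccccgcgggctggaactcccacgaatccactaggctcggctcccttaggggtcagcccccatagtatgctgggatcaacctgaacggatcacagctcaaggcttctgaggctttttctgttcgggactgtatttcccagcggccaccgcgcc
ZNF780B: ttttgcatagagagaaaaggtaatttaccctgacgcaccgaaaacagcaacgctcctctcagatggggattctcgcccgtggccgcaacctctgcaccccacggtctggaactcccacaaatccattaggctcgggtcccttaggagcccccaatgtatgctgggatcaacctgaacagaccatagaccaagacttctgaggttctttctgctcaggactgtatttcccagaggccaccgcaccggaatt

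Aligned end to end, the sequences of ZNF91 and ZNF93 were identical at 83.1% of positions, those of ZNF780A and ZNF780B at 79% and those of ZNF91 and ZNF682 at 65%, against 46.6% for ZNF91 and ZNF780A. ZNF93 and ZNF682 hold 2 copies of the capital word and ZNF91 holds 1, and ZNF780A and ZNF780B hold neither word. Of the pairs most alike in sequence, ZNF91 and ZNF93 were both above 0 with IgG, and ZNF780A and ZNF780B differed. Of the 48 genes with TCCAATCA 52.1% were above 0 with IgG, against 54.5% of the 156 without it, and their medians in the IMP1 RIP were 0.671 and 0.750 FPKM. For ACTACATT it was 42.4% of 33 against 56.1% of 171.

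The mRNAs of the silencing machinery that KRAB zinc finger proteins recruit went in both directions. All 22 genes of a list of such factors were above 0 in both libraries, with 3 at least 2-fold higher in the IMP1 RIP, 13 at least 2-fold lower and a median log2 ratio of -1.24. Of all genes above 0 in both, 17.5% were higher and 43.8% lower, with a median of -0.72. TRIM28, the corepressor that binds KRAB domains, had 35.2 FPKM in the IMP1 RIP and 83.4 FPKM with IgG (log2 ratio -1.24). SETDB1, its histone methyltransferase, went the other way with 3.65 and 0.420 FPKM (2.85), as did the DNA methyltransferase DNMT1 with 3.19 and 0.382 FPKM (2.77) and the remodeller CHD4 with 5.99 and 2.18 FPKM (1.42). Of the heterochromatin proteins, CBX3 had 18.8 and 143 FPKM (-2.92), while CBX1 with 13.3 and 20.2 FPKM and CBX5 with 15.0 and 15.3 FPKM were within 2-fold. The smallest ratios were those of ATRX, with 0.344 and 12.4 FPKM (-4.81), and of ATF7IP, a partner of SETDB1, with 1.54 and 39.5 FPKM (-4.60).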

How the data were processed

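RNA from 2 precipitates of T47D cells, 1 with anti-IMP1 antibody and 1 with normal IgG, was sequenced by a company, and the authors deposited FPKM per gene for each library on hg19, per the labels. The aligner, the software behind the FPKM and the annotation are not given in the sources used here. No value is 0, and 1e-05 stands 1202 times in the IMP1 column and 7270 times in the IgG column, so it was read as 0. Their fold changes, p-values, q-values and lists of changed genes were not used. Locus starts, counted from 0, had 1 added. For each of 18781 genes the log2 ratio of (FPKM + 0.1) was computed, and genes past 2-fold were counted over the whole table. With 1 library per group there was no test. Without read counts, neither depth nor a counting interval is known.

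The zinc finger genes, the gene lists and the cluster gap of 1 Mb were chosen with earlier results of these data known. Genes named with values are the 5 highest in each library, the 5 largest and 5 smallest ratios among those above 0 in both, the 5 highest at 0 in the other library, the ends of each cluster, and 7 genes with known roles; any others are examples chosen after their values were seen. ZNF702P and ZNF833P are the ends of the pseudogene range. Protein features were planned but not analysed here, and the values of 1 blood marker are not reported here. Promoters came from RefSeq (GRCh38.p14), and positions of the 2 builds were not mixed. Alternatives were other pseudocounts, filters, scales, thresholds, gene names and gaps. The counting was tested on simulated data. Python 3.11.15, numpy 2.4.6, pandas 2.3.3 and matplotlib 3.10.9 were used.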

Additional observations from a re-analysis of the deposited data

How the results depend on the processing

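With 1 library per group no replicate could be left out. No paired analysis was possible because neither antibody has a second library. The number of zinc finger genes of chromosome 19 at least 2-fold higher in the IMP1 RIP, 125, became 36 with a pseudocount of 1 and 18 among genes above 0 in both libraries, a filter that leaves out the 107 listed at 0 with IgG. The number lower, 69, became 39 at a threshold of 4-fold and 26 after both libraries were set to the same FPKM sum, a log2 shift of 1.88 before the pseudocount. The share of higher genes among those past 2-fold was 64.4% as deposited and 86.1% after that shift, against 57.2% and 83.1% for all genes. The median log2 ratio of genes above 0 in both, -1.25, was -0.78 with a pseudocount of 1, -1.30 with 0.01, -0.50 after scaling to the median gene, -1.28 at 0.5 FPKM or more in both and -1.26 with a broader choice of names. It was 0.47, with the opposite sign, at the same FPKM sum. The number above 0 in both, 125, became 73 when detection began at 0.5 FPKM, and the 16 clusters became 8 with a gap of 2 Mb. In alternatives added after seeing the data, values under 0.001 FPKM read as 0 gave a median of -1.31 and 1 row per gene name gave -1.29. For a change that the alternative's own filter, scale or threshold does not set, the cause was not tested.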
